A study of Mus musculus with 26 samples.

Results

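The 94 genes described here encode enzymes that metabolise foreign and endogenous small molecules. They were taken by symbol from 6 families: cytochrome P450 families CYP1 to CYP4 (Cyp), UDP-glucuronosyltransferases (Ugt), glutathione S-transferases (Gst), sulfotransferases (Sult), carboxylesterases (Ces) and aldo-keto reductases of family AKR1 (Akr1). A gene was kept when at least 3 of the 26 libraries held at least 1 CPM (counts scaled to a common library total), which left 94 of 174 family symbols among the 55385 gene identifiers in the tables. Pseudogene names ending in -ps, Cyp4f14 and Cyp4a10 were left out before that count, 40 symbols in all. The kept genes were 32 of 80 Cyp, 12 of 19 Ugt, 22 of 23 Gst, 6 of 21 Sult, 12 of 15 Ces and 10 of 16 Akr1 symbols. The members were thus chosen by their CPM level, not by a contrast between groups, and 72 of the 94 reached 1 CPM in all 26 libraries. Gsto2 and Sult4a1 reached it only in treated libraries and Cyp3a59 only in vehicle libraries of day 6, so for those 3 genes a difference between groups was built into the choice. Cyp2d10 and Cyp2d34 reached it in 1 and 2 vehicle libraries, all of day 3, so they passed the minimum only with treated libraries. Just inside the limit, the third-highest CPM of a gene was 1.08 for Cyp2c70, 1.21 for Cyp3a59 and 1.24 for Gsto2, and just outside it was 0.911 for Cyp2c67, 0.817 for Cyp4f15 and 0.744 for Cyp2c23.

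RNA came from mouse intestinal organoids, small epithelial structures grown in Matrigel from crypts of the C57BL/6 strain. All groups shared a medium with EGF, Noggin, R-spondin, the Wnt pathway activator CHIR-99021, the kinase inhibitor Y-27632, and N-acetyl-L-cysteine, a source of cysteine from which cells can make glutathione. Organoids received vehicle, arachidonic acid (AA, 25 µM), a polyunsaturated fatty acid, or prostaglandin E2 (PGE2, 50 nM), a signalling lipid made from it. The treatment protocol names PGE2 and the design text a dimethyl analogue of it, so PGE2 stands here for whichever was used. Each of the 3 conditions has 3 libraries per day for days 1 and 3. The day 6 set holds no PGE2 group, and its vehicle and AA groups have 4 libraries. Nothing in the labels tells separate cultures or mice from repeat libraries of 1 culture, so p-values measure only the spread between these libraries.

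Library totals lay between 1.01e+07 and 1.46e+07 counts in the day 1 and day 3 table and between 1.61e+07 and 1.98e+07 in the day 6 table. The tables differ in content, with 6.74% to 10.3% of counts on mitochondrial rRNA genes in the first and 0.00305% to 0.266% in the second, so levels were compared within each table only. Levels given below are CPM scaled by edgeR's trimmed mean of M values (TMM) within each table, and since they are not divided by transcript length they are not compared between genes. All 8 intestinal epithelial markers were at 1 CPM or more in every group, while the summed level of 8 fibroblast and smooth muscle markers was at most 1.37 CPM in any library, and that of 8 immune markers at most 7.37 CPM. Among 8 hepatocyte genes, chosen because the liver is the other main site of these enzymes, Apob, Cps1 and Ttr reached 1 CPM, and Alb, Tat, Fgb, Serpina1a and Tdo2 stayed below it in the mean of every group.

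Drug-metabolising enzymes are usually placed in phases. Phase I enzymes (Cyp, Ces and Akr1 here) oxidise, hydrolyse or reduce a molecule, and phase II enzymes (Ugt, Gst and Sult) join glucuronic acid, glutathione or sulfate to it, which makes it easier to export. In the intestine most of them are made in absorptive enterocytes, and many are under the control of receptors that bind small molecules, such as the aryl hydrocarbon receptor and the pregnane X receptor. Several members also act on eicosanoids, the family of lipids to which AA and PGE2 belong.

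Taken as a sum, the 94 genes held 5880 ± 122 CPM (SD, n = 3) in vehicle at day 1, 5980 ± 111 with AA and 4540 ± 29.7 with PGE2. At day 3 the sum was 5070 ± 152 in vehicle, 7310 ± 150 with AA and 6870 ± 224 with PGE2. At day 6 it was 8010 ± 295 (n = 4) in vehicle and 8020 ± 540 with AA. The PGE2 libraries thus lay below every vehicle library at day 1 and above every one at day 3, and the groups overlapped at day 6. These sums are a description with no test, and abundant transcripts weigh most in them.

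Gene by gene, most members fell with PGE2 at day 1 and most rose with either treatment at day 3. Of 92 members tested at day 1, PGE2 lowered 48 and raised 16 relative to vehicle, by edgeR's quasi-likelihood test at a Benjamini-Hochberg adjusted p under 0.05, where 28.9% of all 14850 genes tested were lower and 27% higher (55.9% in either direction). The median log2 fold change was -0.36 for the members and -0.02 for all genes. At day 3 PGE2 raised 49 and lowered 25, against 28.9% of all genes higher and 30.1% lower (58.9% in either direction), with medians of 0.33 and -0.04. AA at day 1 raised 24 and lowered 25, 26.1% and 27.2% of the members beside 19.5% and 22.2% of all genes (41.7% in either direction), shares near the background in both directions. At day 3 AA raised 52 and lowered 7, where 21.2% of all genes were higher and 20.1% lower (41.3% in either direction), and the members' median was 0.42. At day 6 AA raised 31 of 91 and lowered 11, against 15.3% and 15.5% of the 14663 genes tested (30.7% in either direction). The median was 0.05. These counts include members whose choice built in a difference. Without Gsto2, Sult4a1 and Cyp3a59, PGE2 raised 15 and lowered 48 at day 1 and raised 47 and lowered 25 at day 3. AA then raised 23, 51 and 31 at days 1, 3 and 6 and lowered 25, 7 and 10. Cyp2d10 and Cyp2d34, which passed the minimum only with treated libraries, stay among the PGE2 rises at both days.

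**Figure D1:**
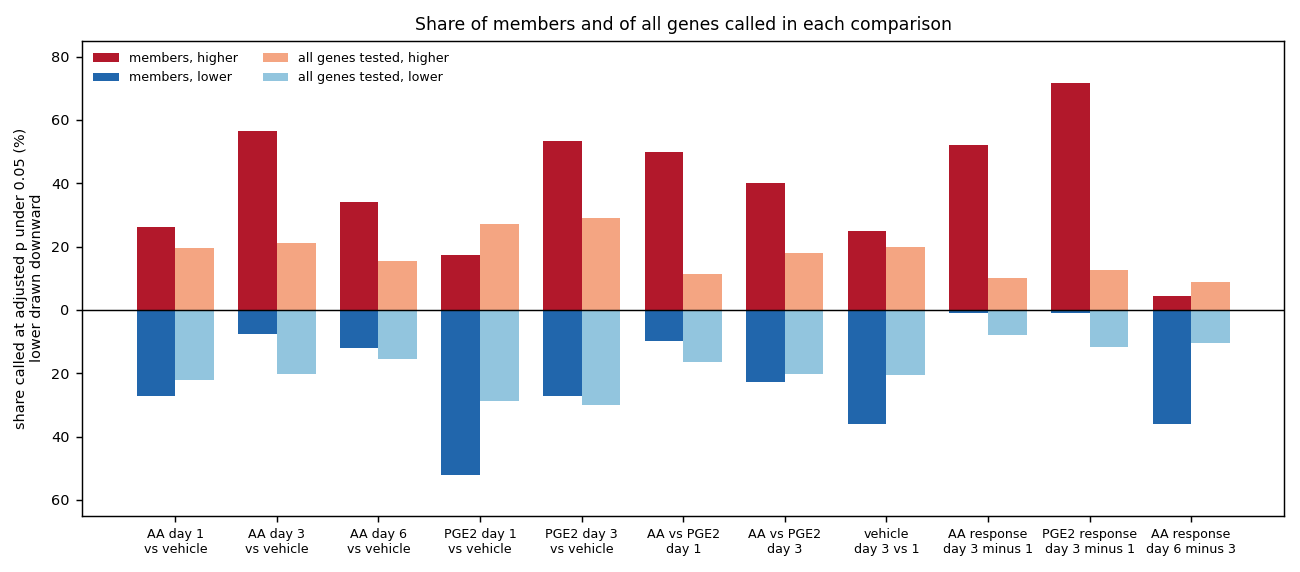
Share (%) of the members (dark bars) and of all genes tested (pale bars) called higher (drawn upward) or lower (drawn downward) at an adjusted p under 0.05 in each of 11 comparisons. The members' bar reaches 56.5% for AA at day 3, where the bar of all genes is at 21.2%. The members' bars also count the members whose choice built in a difference between groups.

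Levels of absorptive enterocyte markers moved with part of this pattern. The summed level of 10 such markers ran from 1350 to 1430 CPM in vehicle at day 1, 1630 to 1820 with AA and 1370 to 1420 with PGE2. At day 3 it ran from 1550 to 1600 in vehicle, 2650 to 3070 with AA and 2730 to 3100 with PGE2, and at day 6 from 1490 to 1850 in vehicle and 2770 to 3430 with AA. By the test, 9 of the 10 rose and 0 fell with AA at day 3, and at days 1 and 6 alike 6 rose and 1 fell. With PGE2, 9 rose and 1 fell at day 3, and 5 rose and 4 fell at day 1. The markers' median log2 fold changes with AA were 0.21, 0.91 and 0.67 at days 1, 3 and 6, where the members' were -0.01, 0.42 and 0.05. With PGE2 the markers' medians were 0.19 and 0.88 at days 1 and 3, where the members' were -0.36 and 0.33. The markers' part in the members' changes was not tested. In such bulk libraries, fewer cells of a type and less RNA per cell cannot be told apart.

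**Figure D2:**
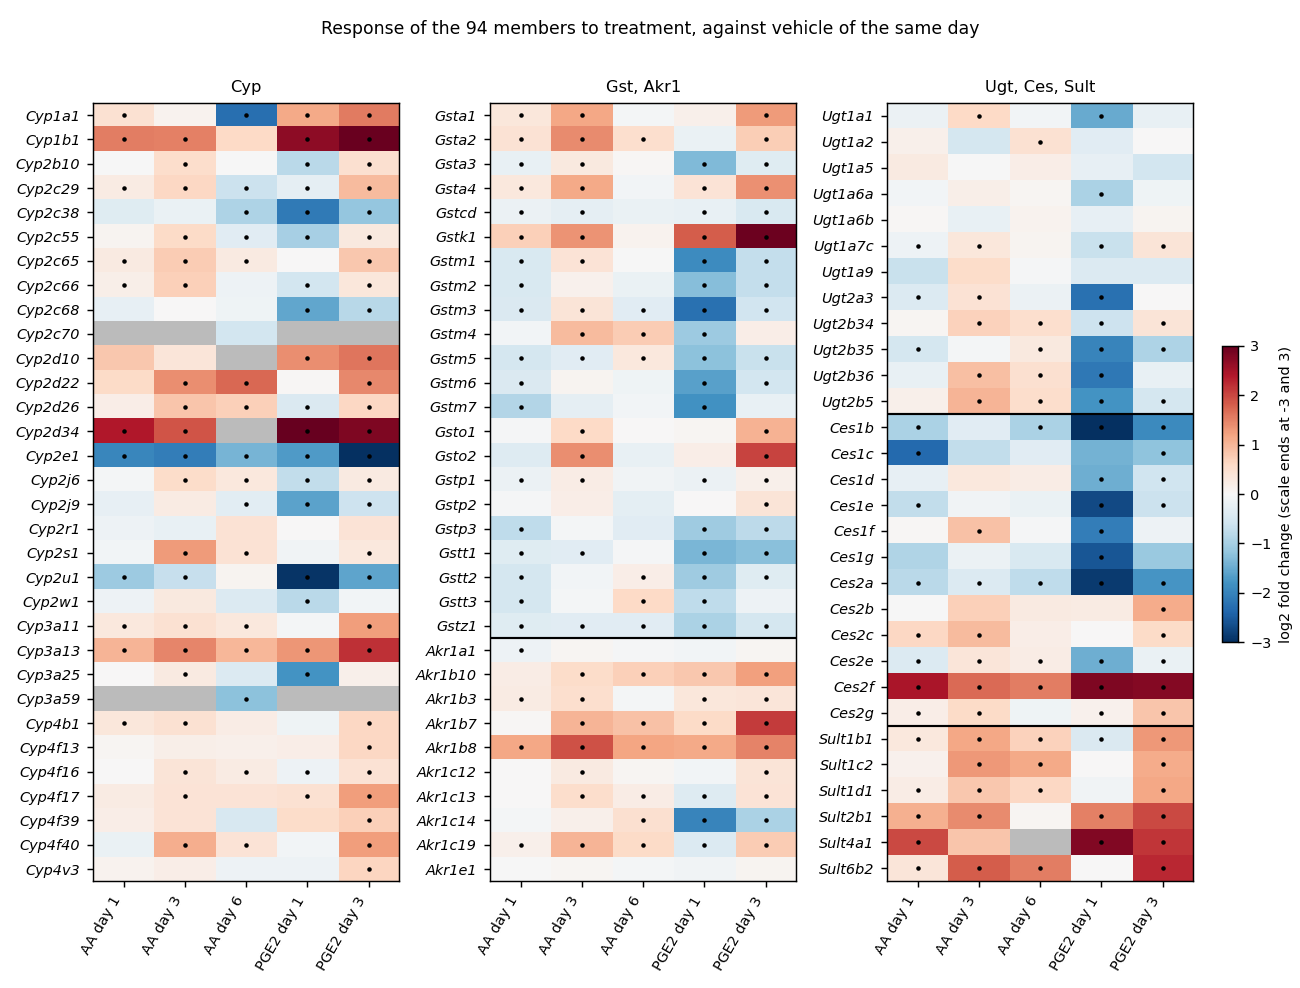
Log2 fold change of each of the 94 members against vehicle of the same day (colour, from -3 in blue to 3 in red; grey, not tested), with a dot where the adjusted p was under 0.05. Columns are the 5 treatment groups and rows are genes by family. Cyp3a13, Akr1b8 and Ces2f are red with a dot in all 5 columns, and Cyp2e1, Ces2a and Gstz1 blue with a dot in all 5.

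Cyp3a13, Akr1b8 and Ces2f rose, and Cyp2e1, Ces2a and Gstz1 fell, in each of the 5 treatment comparisons. The AA and PGE2 comparisons of a day share their 3 vehicle libraries, so a like call in both is not independent. No call was made in any of the 5 for Ugt1a9, Ugt1a6b, Ugt1a5, Cyp2r1, Akr1e1 and Cyp2c70, of which Cyp2c70 was tested only at day 6. Vehicle library 2 of day 3 stood apart for several Ugt1a genes, with Ugt1a5 at 9.65 CPM against 2.02 and 1.78 in the other vehicle libraries, Ugt1a6b at 10.8 against at most 3.47, and Ugt1a2 at 5.04 against 1.01 and 0.656. Without that library Ugt1a5, Ugt1a6b and Ugt1a6a were called higher with AA at day 3 (edgeR adjusted p = 0.00256, 0.0423 and 0.0148), and Ugt1a6b and Ugt1a2 with PGE2 (0.000373 and 0.000831). The library was left out after its values were seen, and dropping a high vehicle library pushes these differences upward. AA library 3 of day 3, at 6.57 CPM for Ugt1a5 against 3.13 and 3.29, was kept. The refit thus describes how far the missing calls rest on 1 library and is no test of a rise.

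Counts by family, and by subfamily below, are descriptions, with no test of the family or of differences between families. They stand beside 27% of all genes higher and 28.9% lower with PGE2 at day 1, and 28.9% and 30.1% at day 3. With AA the shares of all genes were 19.5% and 22.2% at day 1, 21.2% and 20.1% at day 3, and 15.3% and 15.5% at day 6. Of 30 cytochromes P450, 6 rose and 14 fell with PGE2 at day 1 and 22 rose and 5 fell at day 3. The medians were -0.13 and 0.62. Cyp2d10 and Cyp2d34, which passed the minimum only with treated libraries, are among these rises at both days. Cyp2d34 is also among the rises with AA at days 1 and 3. AA raised 9, 18 and 9 at days 1, 3 and 6 and lowered 2, 2 and 7, of which 6 at day 6 are left without Cyp3a59, whose fall its choice built in. Among 12 carboxylesterases, 2 rose and 7 fell with PGE2 at day 1 and 4 rose and 6 fell at day 3, with medians of -1.46 and -0.4. AA raised 3, 5 and 2 at days 1, 3 and 6 and lowered 5, 1 and 2. The carboxylesterase shares with AA at day 6, 16.7% in each direction, and the share raised by PGE2 at day 3, 33.3%, were near those of all genes. Among the 10 aldo-keto reductases, 4 rose and 3 fell with PGE2 at day 1 and 7 rose and 1 fell at day 3, with medians of -0.08 and 0.4. AA raised 3, 7 and 6 at days 1, 3 and 6 and lowered 1, 0 and 0.

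In phase II, of 12 glucuronosyltransferases, 0 rose and 8 fell with PGE2 at day 1 and 2 rose and 2 fell at day 3. The medians were -0.81 and -0.18. The day 3 shares, 16.7% in each direction, lay below the 28.9% and 30.1% of all genes. AA raised 0, 6 and 5 at days 1, 3 and 6 and lowered 3, 0 and 0. Of the 22 glutathione S-transferases, 2 rose and 15 fell with PGE2 at day 1 and 8 rose and 11 fell at day 3, with medians of -1.01 and -0.29. AA raised 4, 11 and 5 at days 1, 3 and 6 and lowered 14, 4 and 2. Gsto2 is 1 of the rises at day 3 with either treatment, which its choice built in. The sulfotransferases are counted without Sult4a1 for the same reason. Of the other 5, 1 rose and 1 fell with PGE2 at day 1 and 5 rose and 0 fell at day 3, and AA raised 4, 5 and 4 at days 1, 3 and 6 and lowered 0, 0 and 0.

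Both CYP1 members rose with PGE2 at both days. Cyp1a1 and Cyp1b1 oxidise polycyclic aromatic hydrocarbons and are the textbook targets of the aryl hydrocarbon receptor. Cyp1b1 was at 6.86, 5.61 and 6.8 CPM in the vehicle libraries of day 1, at 19, 19.1 and 17.6 with AA and at 42.8, 41.6 and 40.3 with PGE2. The 3 groups did not overlap. The log2 fold change was 1.53 ± 0.11 (SE) for AA (edgeR adjusted p = 7.86e-13) and 2.69 ± 0.10 for PGE2 (edgeR adjusted p = 2.72e-20). The day 3 values were 2.88, 3.1 and 3.75 CPM in vehicle, 10.9, 8.47 and 7.88 with AA and 26.4, 23.2 and 26.1 with PGE2, a 7.83-fold rise for the latter. AA stayed below PGE2 at both days, by 1.16 ± 0.08 and 1.46 ± 0.10 on the log2 scale (edgeR adjusted p = 1.69e-12 and 7.12e-13). By day 6 the highest of all 8 libraries was 1.02 CPM, a vehicle library, and no difference was called.

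Cyp1a1 followed a different course with AA. Vehicle libraries held 33.7, 34.1 and 30.5 CPM at day 1, AA libraries 40.1, 48 and 47, and PGE2 libraries 70.6, 73 and 73.3, so all 3 groups were separate. At day 3 vehicle held 10.7, 9.12 and 8.71 CPM, AA 12.6, 9.17 and 8.81, which overlaps vehicle, and PGE2 27.6, 27.8 and 29.9. At day 6 the order turned, with 10.1, 10.3, 7.82 and 10.8 CPM in vehicle and 2.21, 1.91, 2.36 and 1.62 with AA. The log2 fold change for AA was 0.46 ± 0.08 at day 1, 0.10 ± 0.13 at day 3 and -2.26 ± 0.15 at day 6, and the middle value missed the threshold (edgeR adjusted p = 0.546). For PGE2 it was 1.14 ± 0.08 and 1.57 ± 0.11 at days 1 and 3. The fall at day 6 was 4.81-fold (edgeR adjusted p = 2.03e-06).

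The receptor's own repressor Ahrr, itself a target of the receptor, rose with both treatments at day 1, by 1.47 ± 0.15 with AA and 2.73 ± 0.13 with PGE2 on the log2 scale (edgeR adjusted p = 1.55e-09 and 2.61e-17). Its mean level was 2.52 ± 0.139 CPM in vehicle, 6.99 ± 0.631 with AA and 16.7 ± 0.44 with PGE2 (SD, n = 3). At day 3 the rises were 1.94 ± 0.21 and 2.62 ± 0.19, and at day 6 the AA value of 0.45 ± 0.26 missed the threshold (edgeR adjusted p = 0.273). Tiparp, another target of the receptor, rose with PGE2 at day 1 by 0.58 ± 0.09, fell with PGE2 at day 3 by 0.23 ± 0.08 and rose with AA at day 6 by 0.51 ± 0.12. Its AA values at days 1 and 3 were 0.02 ± 0.09 and 0.00 ± 0.08 (edgeR adjusted p = 0.856 and 0.994). The receptor binds DNA at the xenobiotic response element, whose core letters are GCGTG. The 250 bases before the start sites of Cyp1a1 and Cyp1b1 are printed because both genes, like Ahrr, rose with PGE2 at both days. The sequences are from RefSeq on GRCm38.p6, read 5′ to 3′ along the gene, and capitals mark that core on either strand.
Cyp1a1, chr9:57697363-57697612, plus strand: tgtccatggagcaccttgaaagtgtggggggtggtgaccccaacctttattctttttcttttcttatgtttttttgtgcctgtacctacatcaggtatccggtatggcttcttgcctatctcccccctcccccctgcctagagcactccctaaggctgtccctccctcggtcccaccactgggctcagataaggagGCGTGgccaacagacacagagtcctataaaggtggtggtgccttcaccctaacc
Cyp1b1, chr17:79715062-79715311, minus strand: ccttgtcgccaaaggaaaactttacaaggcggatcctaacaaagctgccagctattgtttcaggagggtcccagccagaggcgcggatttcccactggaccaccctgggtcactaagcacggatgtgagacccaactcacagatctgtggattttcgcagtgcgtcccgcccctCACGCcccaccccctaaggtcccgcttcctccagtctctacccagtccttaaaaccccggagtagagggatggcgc
Each window held 1 core, with its first base 54 bases before the start site on the gene's own strand in Cyp1a1 and 76 bases before it on the other strand in Cyp1b1. Such a short word is common: 32.4% of 32851 mouse promoters of 300 bases (250 before the start to 50 after) held it, as did 25 of 96 promoters (26%) of the 82 members found in that table. The enhancer through which the receptor is best known to act on Cyp1a1 lies farther upstream and outside this window.

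The CYP2 family moved in both directions. Cyp2u1, which hydroxylates AA and other long fatty acids, was at 13.2, 11.5 and 11.2 CPM in vehicle at day 1, 6.08, 6.1 and 4.82 with AA and 1.91, 1.67 and 1.09 with PGE2. None of these groups overlapped, and the falls were 2.12-fold and 7.66-fold (edgeR adjusted p = 9.67e-08 and 1.08e-14). By day 3 it was at 18.4, 17.8 and 16.8 CPM in vehicle, 11.7, 12.4 and 8.66 with AA and 5.34, 6.14 and 6.23 with PGE2, again without overlap. At day 6 vehicle (24.4 to 32 CPM) and AA (25.6 to 33 CPM) overlapped. Cyp2e1, the ethanol-oxidising enzyme, was low throughout, with 1.69 to 2.5 CPM in vehicle at day 1 and 3.36 to 4.4 at day 3. It fell in all 5 comparisons, most with PGE2 at day 3, where the libraries held 0.217 to 0.411 CPM (log2 fold change -3.73 ± 0.36). At that level each library's value rests on few reads.

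Cyp2c enzymes oxidise many drugs and also AA, and Cyp2c55 is known to hydroxylate it. With PGE2 at day 1, 5 of the 6 tested Cyp2c members fell and 0 rose, and at day 3, 4 rose and 2 fell. Cyp2c55 was at 322, 325 and 346 CPM in vehicle at day 1, 369, 346 and 343 with AA and 162, 175 and 162 with PGE2. At day 3 it was at 214, 201 and 214 CPM in vehicle, 324, 320 and 302 with AA and 246, 267 and 262 with PGE2. PGE2 thus put it below vehicle at day 1 (log2 fold change -0.99 ± 0.05) and above it at day 3 (0.30 ± 0.05). At day 6 the groups overlapped and the fall with AA of 0.35 ± 0.10 on the log2 scale lost its call when any 1 of 4 libraries was left out (edgeR adjusted p = 0.0524 to 0.0829). Cyp2c38 and Cyp2c68 instead fell with PGE2 at both days, Cyp2c38 by 2.13 ± 0.32 and 1.17 ± 0.23 and Cyp2c68 by 1.56 ± 0.13 and 0.83 ± 0.10.

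Cyp2s1, which is found in epithelia exposed to the outside, did not pass the test at day 1 and rose with AA at day 3, from 30.1, 26 and 28.3 CPM to 70, 75.5 and 61.1, while PGE2 libraries held 32, 39 and 34.1, a rise of 0.31 ± 0.08 on the log2 scale. Of the 4 Cyp2d members, neighbours on chromosome 15 related to the human debrisoquine hydroxylase, all rose with PGE2 at day 3. Cyp2d10 and Cyp2d34 passed the CPM minimum only with treated libraries, so their choice favoured a rise. Cyp2d34 went from 1.3, 0.973 and 0.656 CPM to 7.06, 7.3 and 6.57, a log2 fold change of 2.79 ± 0.22. Cyp2d26 went from 71.6, 68.4 and 67.7 CPM to 94.9, 113 and 111, and to 133, 130 and 107 with AA. Cyp2b10, a marker of the constitutive androstane receptor, was at 134, 124 and 118 CPM in vehicle at day 1 and 71.1, 75.8 and 70.2 with PGE2, and at 95.5, 110 and 109 CPM in vehicle at day 3 and 142, 138 and 154 with PGE2, so it lay below vehicle first and above it later.

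CYP3A enzymes carry out much of intestinal drug oxidation. Cyp3a13 was at 101, 102 and 103 CPM in vehicle at day 1, 214, 202 and 204 with AA and 256, 251 and 256 with PGE2. The day 3 values were 59, 58.8 and 66.3 CPM in vehicle, 168, 158 and 179 with AA and 278, 279 and 288 with PGE2, a 4.6-fold rise. At day 6 it was at 39.5, 37, 42.2 and 30 CPM in vehicle and 82.1, 60.6, 81.1 and 74.2 with AA. Every treated library lay above every vehicle library of its day. Cyp3a11, the main mouse target of the pregnane X receptor, rose less: by 1.25 ± 0.06 with PGE2 at day 3, by 0.31 ± 0.06 and 0.45 ± 0.06 with AA at days 1 and 3. Its value with PGE2 at day 1 was -0.05 ± 0.06 (edgeR adjusted p = 0.498). Cyp3a25 fell with PGE2 at day 1 by 1.79 ± 0.10. All 7 CYP4 members rose with PGE2 at day 3, with log2 fold changes from 0.43 for Cyp4f16 to 1.26 for Cyp4f40. Among them are Cyp4f enzymes that hydroxylate the ends of fatty acids and eicosanoids. Cyp4f14 and Cyp4a10 were left out by name and are not counted. The call of Cyp4f39 was lost with DESeq2 (adjusted p = 0.139), with no filter (0.112) and without any of 3 libraries. AA at day 3 raised 4 of the 7 and lowered 0, and of these Cyp4f17 lost its call with DESeq2 (adjusted p = 0.125).

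**Figure D3:**
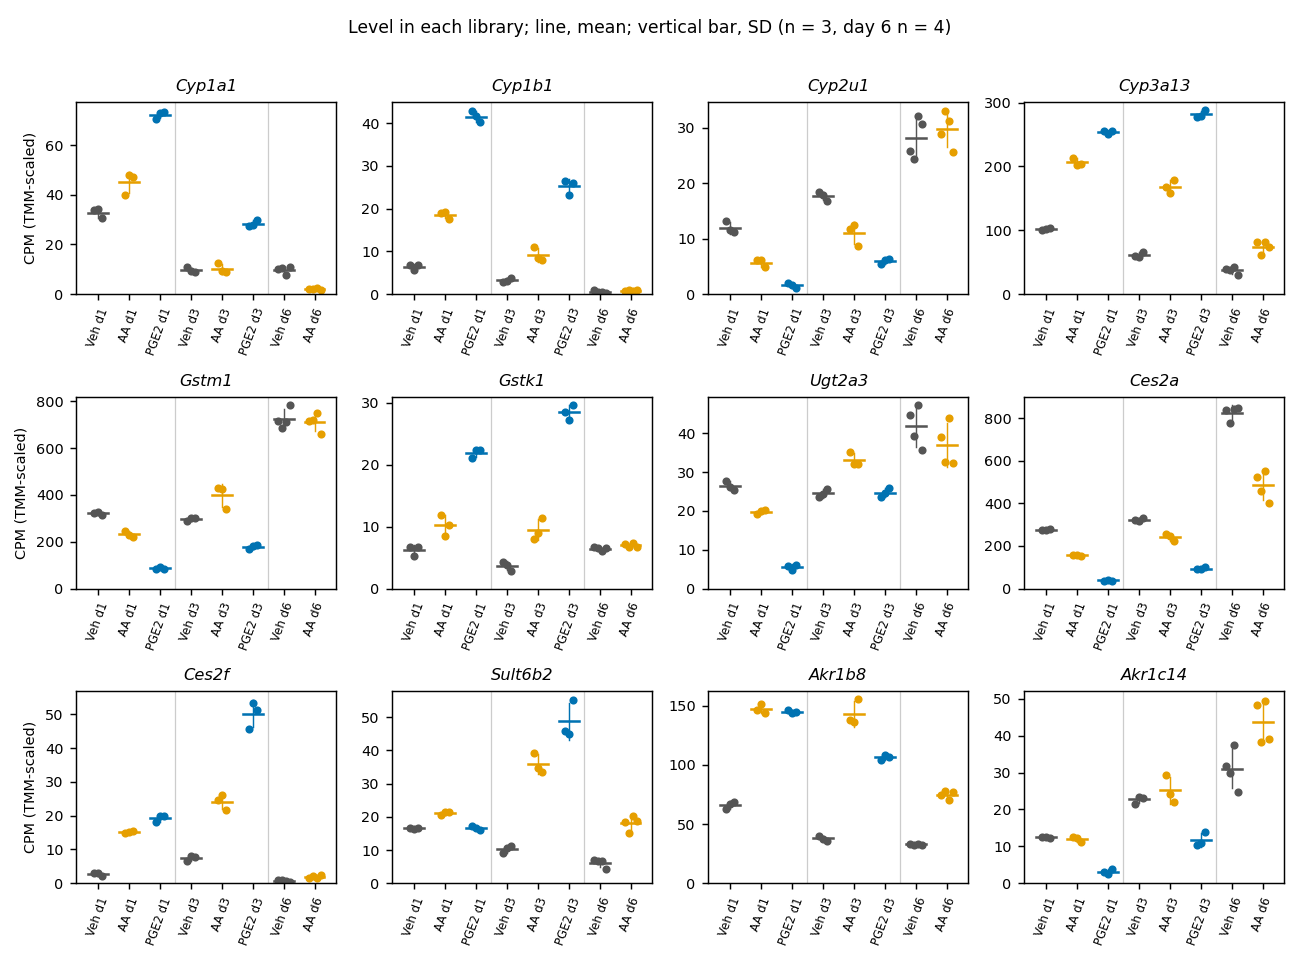
Level of 12 members in each of the 26 libraries (points, CPM after TMM scaling, linear axis from 0), with the group mean (line) and SD (vertical bar). Grey is vehicle, orange AA and blue PGE2, and levels at day 6 come from a separate table. Cyp1b1, Gstk1, Ces2f and Sult6b2 are highest with PGE2 at day 3 or day 1, and Gstm1, Ugt2a3, Ces2a and Cyp2u1 are lowest with PGE2 at day 1.

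Carboxylesterases cleave ester and amide bonds of drugs and lipids. Their 12 members sit in 2 groups of neighbouring genes on chromosome 8, 6 Ces1 and 6 Ces2 genes. Within the Ces2 group the neighbours went opposite ways. Ces2a was at 273, 276 and 280 CPM in vehicle at day 1, 158, 160 and 152 with AA and 37.1, 39.9 and 37.2 with PGE2, a 7.28-fold fall for the last (edgeR adjusted p = 6.22e-27). By day 3 it was at 321, 316 and 332 CPM in vehicle, 256, 245 and 222 with AA and 90.4, 92.5 and 99.5 with PGE2. At day 6 it was at 836, 776, 844 and 848 CPM in vehicle and 524, 459, 552 and 402 with AA. No treated library reached a vehicle library of its day.

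Ces2f moved the other way at every day. It was at 3.14, 2.92 and 2.19 CPM in vehicle at day 1, 14.8, 15.2 and 15.3 with AA and 18, 19.8 and 20 with PGE2, which are rises of 5.45-fold and 6.93-fold (edgeR adjusted p = 2.12e-15 and 1.37e-17). At day 3 vehicle held 6.49, 8.14 and 7.78 CPM, AA 24.7, 26.1 and 21.6 and PGE2 45.6, 53.3 and 51.4. At day 6 the levels were low, 0.32 to 0.909 CPM in vehicle and 1.52 to 2.46 with AA, and still did not overlap. The 250 bases before the start sites of both genes are printed from RefSeq (GRCm38.p6) for this contrast between neighbours. Neither window held the letters TATAAA on either strand, which 13.6% of all promoters held, so no letters are in capitals.
Ces2a, chr8:104733753-104734002, plus strand: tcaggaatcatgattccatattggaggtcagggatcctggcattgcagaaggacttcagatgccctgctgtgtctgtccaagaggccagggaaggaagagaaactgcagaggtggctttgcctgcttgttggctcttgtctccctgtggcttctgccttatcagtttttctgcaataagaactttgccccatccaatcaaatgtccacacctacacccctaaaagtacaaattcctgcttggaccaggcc
Ces2f, chr8:104947106-104947355, plus strand: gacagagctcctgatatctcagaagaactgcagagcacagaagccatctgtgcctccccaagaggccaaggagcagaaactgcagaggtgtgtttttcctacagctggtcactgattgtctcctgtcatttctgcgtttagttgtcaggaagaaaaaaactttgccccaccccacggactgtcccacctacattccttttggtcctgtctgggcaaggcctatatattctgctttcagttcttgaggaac
In an alignment of their 300-base promoters, 54.9% of columns were identical, and pairs among Ces2a, Ces2c, Ces2e, Ces2f and Ces2g had 47.3% to 65%. Of the remaining Ces2 genes, Ces2e fell with PGE2 at day 1 by 1.46 ± 0.06 and Ces2c rose with AA at days 1 and 3 by 0.62 ± 0.05 and 0.94 ± 0.05. Ces2g rose with AA by 0.20 ± 0.05 and 0.57 ± 0.05 at days 1 and 3 and with PGE2 by 0.83 ± 0.05 at day 3. Its value with PGE2 at day 1 was 0.14 ± 0.05, a call lost with no filter (edgeR adjusted p = 0.105), on total counts (0.31) and without vehicle library 1 (0.0722) or PGE2 library 1 (0.0768).

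In the Ces1 group 5 of 6 genes fell with PGE2 at day 1 and 0 rose, and at day 3, 4 fell and 0 rose. Ces1b, Ces1c, Ces1d and Ces1g held means of 0.405 to 1.45 CPM in vehicle at day 1, so their values rest on few reads. The day 3 calls of Ces1c and Ces1d were lost with DESeq2 (adjusted p = 0.138 and 0.113), and the day 1 call of Ces1d without PGE2 library 1 (edgeR adjusted p = 0.0781) or 3 (0.106). Ces1e was at 6.5, 8.07 and 6.95 CPM in vehicle at day 1, 3.94, 4.67 and 4.32 with AA and 1.07, 1.15 and 1.09 with PGE2, a 6.48-fold fall. Ces1f held 27, 26.5 and 26.6 CPM in vehicle, 30.5, 23.6 and 27.8 with AA and 5.64, 5.42 and 7.78 with PGE2. AA and vehicle overlapped for Ces1f at day 1, and at day 3 AA raised it by 0.87 ± 0.11 while PGE2 left a value of -0.15 ± 0.12 (edgeR adjusted p = 0.277).

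**Figure D4:**
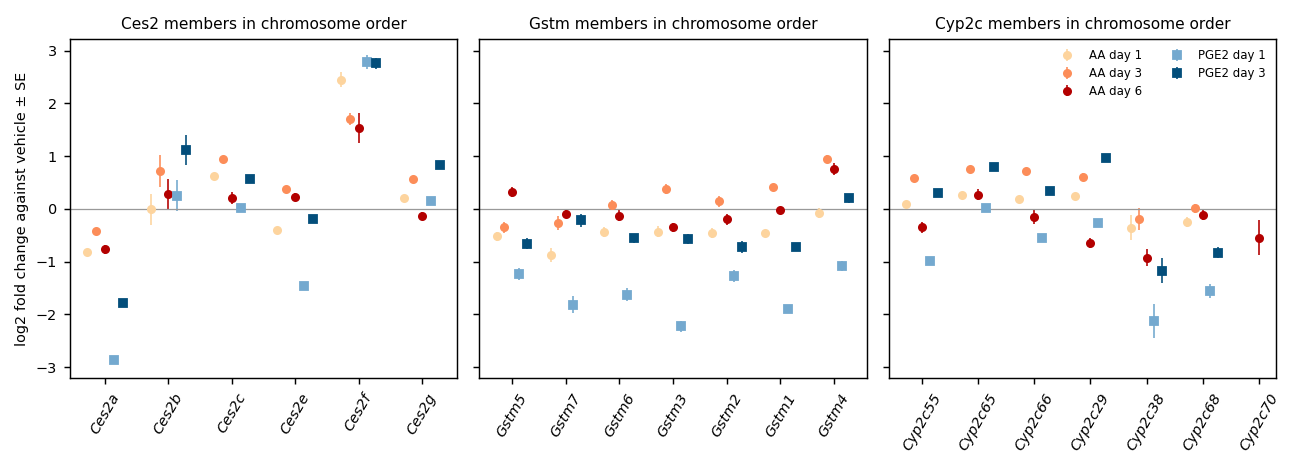
Log2 fold change against vehicle of the same day, with its SE (bars), for the Ces2, Gstm and Cyp2c members in their order along the chromosome. Circles are AA at days 1, 3 and 6 and squares PGE2 at days 1 and 3. Ces2a lies below 0 and Ces2f above 0 at all 5 points, and all 7 Gstm genes lie below -1 with PGE2 at day 1.

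Aldo-keto reductases turn aldehydes and ketones into alcohols. The 4 Akr1b members are neighbours on chromosome 6, and all 4 rose with AA at day 3 and with PGE2 at days 1 and 3. For Akr1b7 the call with PGE2 at day 1 (0.57 ± 0.22) was lost with DESeq2 (adjusted p = 0.0818), with no filter (0.0587), on total counts in place of TMM (0.062) and without any of 4 libraries (0.0618 to 0.0893). Akr1b8, which reduces retinal and reactive aldehydes, was at 62.4, 67 and 68.8 CPM in vehicle at day 1, 146, 151 and 144 with AA and 146, 144 and 145 with PGE2. The 2 treatments overlapped at day 1 (difference 0.02 ± 0.05, edgeR adjusted p = 0.83). At day 3 it held 39.9, 37.5 and 36 CPM in vehicle, 138, 136 and 156 with AA and 104, 108 and 107 with PGE2, and AA lay above PGE2 by 0.44 ± 0.05. At day 6 vehicle held 32.4 to 33.2 CPM and AA 70 to 77.8. Akr1b10 rose by 0.81 ± 0.11 and 1.22 ± 0.10 with PGE2 at days 1 and 3 and by 0.72 ± 0.12 with AA at day 6.

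Of the 4 Akr1c genes, which include hydroxysteroid dehydrogenases, 3 fell and 0 rose with PGE2 at day 1, and 3 rose and 1 fell at day 3. Akr1c14 was at 12.6, 12.5 and 12.3 CPM in vehicle at day 1, 12.4, 12.2 and 11.1 with AA and 2.9, 2.4 and 3.93 with PGE2, a 3.98-fold fall (edgeR adjusted p = 7.21e-12). It lay 0.94 ± 0.11 below vehicle with PGE2 at day 3. Akr1c19 fell with PGE2 at day 1 by 0.42 ± 0.05 and rose at day 3 by 0.77 ± 0.05, and AA raised it at days 3 and 6 by 1.01 ± 0.05 and 0.57 ± 0.07. Akr1a1, the general aldehyde reductase, lay between 335 and 465 CPM in all 26 libraries. Its 1 call against vehicle (AA at day 1, -0.16 ± 0.05) was lost without vehicle library 3 (edgeR adjusted p = 0.18) or AA library 1 or 2, and without rRNA-like and mitochondrial genes (0.0892).

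The falls of glucuronosyltransferases with PGE2 at day 1 included all 5 Ugt2 genes, with a median of -1.97. They are neighbours on chromosome 5, in 1 group with Sult1b1 and Sult1d1. Ugt2a3 was at 27.7, 26.2 and 25.5 CPM in vehicle at day 1, 19.1, 19.9 and 20.3 with AA and 5.87, 4.69 and 6.02 with PGE2, a 4.74-fold fall (edgeR adjusted p = 8.82e-19). At day 3 PGE2 libraries (23.6, 24.6 and 25.9 CPM) overlapped vehicle (23.5, 24.3 and 25.7), and AA libraries (35.1, 32.2 and 32.2) lay above both. Ugt2b35 held 85.4, 89.4 and 92.6 CPM in vehicle at day 1 and 22.9, 24 and 21.3 with PGE2, and it was still lower at day 3, with 111, 96.9 and 105 CPM in vehicle and 54.5, 55.5 and 54.7 with PGE2.

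Ugt2b34 fell with PGE2 at day 1, from 302, 297 and 305 CPM to 192, 205 and 195, and rose with AA at day 3, from 313, 281 and 310 CPM to 500, 494 and 478. Ugt2b36 and Ugt2b5 did the same, with falls of 2.15 ± 0.24 and 1.80 ± 0.23 with PGE2 at day 1 and rises of 0.90 ± 0.15 and 1.01 ± 0.15 with AA at day 3. With AA at day 6, 4 of the 5 Ugt2 genes rose, by 0.29 to 0.52. The 7 Ugt1a genes share exons on chromosome 1, at 50.3% to 60.6% of their exon bases in GENCODE release M21, so reads cannot be assigned to 1 of them with certainty. For Ugt1a1, 41.5% of exon bases also overlap a gene on the opposite strand, and the strand setting of the counting is not known. With those limits, Ugt1a1, the enzyme that conjugates bilirubin, fell with PGE2 at day 1 by 1.51 ± 0.14 and rose with AA at day 3 by 0.59 ± 0.10.

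Glutathione S-transferases divided by class. The 7 Gstm genes, neighbours on chromosome 3, all fell with PGE2 at day 1, by 1.08 ± 0.10 for Gstm4 to 2.23 ± 0.11 for Gstm3. With AA at day 1, 6 of the 7 fell, and with PGE2 at day 3, 5 fell and 0 rose. Gstm1 was at 324, 326 and 313 CPM in vehicle at day 1, 247, 230 and 222 with AA and 85.8, 90.3 and 85 with PGE2. At day 3 it was at 290, 300 and 301 CPM in vehicle, 430, 424 and 341 with AA, now above vehicle, and 171, 180 and 188 with PGE2. At day 6 vehicle (687 to 785 CPM) and AA (661 to 752 CPM) overlapped. Gstm3 went from 368, 370 and 345 CPM in vehicle to 79, 72.1 and 78.9 with PGE2 at day 1. Gstm7 fell by 0.87 ± 0.13 with AA and by 1.82 ± 0.16 with PGE2 at day 1. All 3 Gstt genes fell with both treatments at day 1, where the call of Gstt1 with AA was lost with DESeq2 (adjusted p = 0.0944), and Gstt1 fell with PGE2 at both days, by 1.37 ± 0.15 and 1.26 ± 0.12.

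Gsta4 and Gstk1 rose with both treatments at days 1 and 3. Gsta4, known for conjugating hydroxynonenal, a product of lipid peroxidation, was at 412, 414 and 453 CPM in vehicle at day 1, 526, 541 and 525 with AA and 558, 562 and 579 with PGE2. At day 3 the values were 295, 273 and 296 CPM in vehicle, 612, 595 and 684 with AA and 746, 731 and 769 with PGE2, without overlap. At day 6 vehicle (334 to 402 CPM) and AA (340 to 370 CPM) overlapped. All 4 Gsta genes rose with AA at day 3, and Gsta1 and Gsta2 rose also with PGE2 at day 3, by 1.27 ± 0.08 and 0.73 ± 0.14. Gsta3 instead fell with PGE2, by 1.32 ± 0.06 at day 1 and 0.36 ± 0.06 at day 3.

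Gstk1, an enzyme of mitochondria and peroxisomes, was at 6.64, 5.3 and 6.64 CPM in vehicle at day 1, 11.8, 8.51 and 10.3 with AA and 21.1, 22.3 and 22.3 with PGE2. The day 3 values were 4.33, 3.81 and 2.9 CPM in vehicle, 8.08, 8.97 and 11.4 with AA and 28.5, 27.2 and 29.6 with PGE2, a 7.6-fold rise (edgeR adjusted p = 5.98e-18). Gstz1, an isomerase of tyrosine breakdown, fell in all 5 comparisons, by 0.33 ± 0.06 to 0.96 ± 0.08. Its exons overlap another gene on the opposite strand by at least 10%, and no source used here states the strand setting of the counting. The same holds for Gstm5, Cyp2u1 and Akr1b7 and for Ugt1a1, Ugt1a2, Ugt1a5, Ugt1a6b and Ugt1a9, 9 members in all. Gsto1, which acts on small thiol compounds, rose at day 3 from 259, 237 and 267 CPM to 359, 374 and 423 with AA and 529, 508 and 535 with PGE2.

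Among the sulfotransferases, Sult6b2 was at 16.7, 16.3 and 16.5 CPM in vehicle at day 1, 20.5, 21.4 and 21.5 with AA and 17.2, 16.5 and 16.1 with PGE2, which overlaps vehicle. By day 3 it was at 9.08, 10.5 and 11.2 CPM in vehicle, 39.2, 34.6 and 33.6 with AA and 45.8, 45.1 and 55.3 with PGE2, rises of 3.52-fold and 4.78-fold. At day 6 it was at 6.84, 6.65, 6.77 and 4.42 CPM in vehicle and 18.3, 15.1, 20.3 and 18.8 with AA. Sult2b1, which sulfates cholesterol, was raised at both earlier days, from 9.86, 10.8 and 11.6 CPM to 22.4, 21.8 and 22.7 with AA and 31.9, 30.4 and 28.6 with PGE2 at day 1. At day 6 vehicle (8.44 to 11.2 CPM) and AA (9.16 to 11.3 CPM) overlapped.

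Sult1b1, which sulfates phenols and thyroid hormone, fell with PGE2 at day 1 by 0.44 ± 0.09 and rose at day 3 by 1.29 ± 0.08, and AA raised it by 0.31 ± 0.08 and 1.15 ± 0.09. Sult1c2 rose with AA at days 3 and 6, by 1.29 ± 0.15 and 1.14 ± 0.13, and with PGE2 at day 3 by 1.11 ± 0.15. Sult1d1, which acts on catecholamines, rose by 0.81 ± 0.06 with AA and 1.15 ± 0.06 with PGE2 at day 3. The rises of Sult1b1 and Sult1d1 with AA at day 6, 0.70 ± 0.17 and 0.61 ± 0.16, were lost with no filter on low counts (edgeR adjusted p = 0.107 and 0.14), and that of Sult1d1 also without vehicle library 4 (edgeR adjusted p = 0.066).

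Hepatocyte nuclear factor 4 is a transcription factor of both liver and intestine whose paralogues Hnf4a and Hnf4g are made in enterocytes. One of its sites, CAAAGTCCA, searched on both strands, stood in 5 of 96 member promoters (5.21%) and in 156 of 32851 promoters overall (0.475%). Of the 5 members, 3 are neighbouring Cyp2c genes and so are not independent. They are printed with 10 bases on either side of the match, which is in capitals, from RefSeq on GRCm38.p6.
Cyp2c65, chr19:39060880-39060908, plus strand: gatgttggaaCAAAGTCCActgggaggag
Cyp2c68, chr19:39741160-39741188, minus strand: atcattgaaaCAAAGTCCAattggaagag
Cyp2c70, chr19:40187332-40187360, minus strand: aggtcaaactCAAAGTCCAaactctgtgt
Cyp3a11, chr5:145879945-145879973, minus strand: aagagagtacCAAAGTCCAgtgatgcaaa
Sult1b1, chr5:87536179-87536207, minus strand: gtgagcaggcCAAAGTCCAttcctggtgg
The first base of the match lay 116, 77, 64 and 109 bases before the start site in Cyp2c65, Cyp2c68, Cyp2c70 and Cyp3a11, and at base 26 after it in Sult1b1. The 5 genes did not move as 1 group. Their log2 fold changes with PGE2 at day 3 were 0.80 ± 0.04 for Cyp2c65, 1.25 ± 0.06 for Cyp3a11, 1.29 ± 0.08 for Sult1b1 and -0.83 ± 0.10 for Cyp2c68, and Cyp2c70 was too low to be tested before day 6. Hnf4g fell with PGE2 at day 1 by 0.58 ± 0.07 and rose at day 3 by 0.77 ± 0.06, and AA raised it at days 1, 3 and 6 by 0.32 ± 0.06, 0.92 ± 0.06 and 0.69 ± 0.07. Hnf4a fell at day 1 by 0.29 ± 0.04 with AA and 0.46 ± 0.04 with PGE2, and rose with AA at day 3 by 0.15 ± 0.04. Its values with PGE2 at day 3 and AA at day 6 were -0.01 ± 0.04 and -0.01 ± 0.06 (edgeR adjusted p = 0.854 and 0.924). Other words searched on both strands were set against all promoters in the same way. The shares of member and all promoters were, for TGACNNNGC, the core of the antioxidant response element, 8.33% against 12.4%, for GTTAAT, a partial site of hepatocyte nuclear factor 1, 10.4% against 7.1%, and for TATAAA 19.8% against 13.6%. A match describes letters only.

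Time in culture alone changed many members. In vehicle organoids 23 rose and 33 fell from day 1 to day 3, beside 19.8% of all genes higher and 20.5% lower (40.3% in either direction). Ces2f, Cyp2s1 and Akr1c14 rose, by 1.42 ± 0.16, 0.94 ± 0.09 and 0.87 ± 0.11. Cyp1a1, Cyp1b1 and Akr1b8 fell, by 1.77 ± 0.10, 1.00 ± 0.16 and 0.80 ± 0.06. For the last 3 genes, a fold change at day 3 is set against a lower vehicle level than at day 1.

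The response to PGE2 was higher at day 3 than at day 1 for 66 members and lower for 1, where 12.6% of all genes were higher and 11.6% lower (24.2% in either direction), with a median difference of 0.87. For AA, 48 were higher and 1 lower, where 10% and 7.95% of all genes were (18% in either direction), with a median difference of 0.49. By calls at each day, 24 members fell with PGE2 at both days and 16 rose at both. With PGE2, 20 passed the test only at day 3, where they rose, and 13 fell at day 1 and rose at day 3. Among the latter are Cyp2c55, Ugt2b34, Sult1b1 and Akr1c19. Another 11 fell only at day 1, 1 fell only at day 3, and 9 had no call at either day (untested members included). With AA, 22 rose at both days, 7 fell at both, and 23 passed only at day 3, where they rose. A fall at day 1 and a rise at day 3 were called for 7. Another 11 fell and 2 rose only at day 1, and 22 had no call at either day (untested members included). The shares of all genes with such patterns over both days were not counted. These pattern counts therefore describe the members and do not set them apart from other genes. In a fit of all 26 libraries the AA response was lower at day 6 than at day 3 for 34 of 94 members and higher for 4, beside 10.4% and 8.78% of all genes (19.1% in either direction). On total counts the split of all genes turned, from 1607 lower and 1362 higher to 1020 and 1747, and that of the members was 29 and 5. The day 6 libraries are a separate set, so day and set cannot be told apart in this difference.

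**Figure D5:**
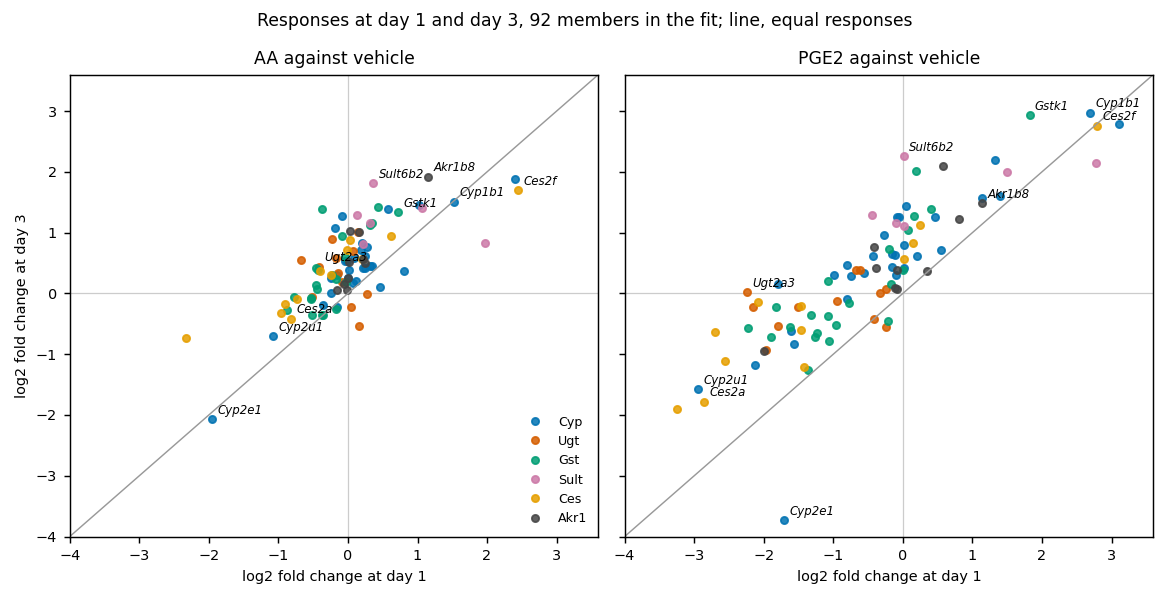
Log2 fold change against vehicle at day 1 (x axis) and day 3 (y axis) of the 92 members in that fit, for AA (left) and PGE2 (right), coloured by family. The grey diagonal marks equal responses. In both panels most points lie above it, and with PGE2 the lowest point is Cyp2e1, at -1.71 and -3.73.

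Set directly against each other, AA organoids at day 1 had 46 members higher and 9 lower than PGE2 organoids, where 11.3% of all genes were higher and 16.5% lower (27.7% in either direction). On total counts in place of TMM the split of all genes turned, from 1671 higher and 2448 lower to 2570 and 1746, and the members' split was 51 and 9. All 7 Gstm, all 5 Ugt2 and all 6 tested Cyp2c members were among the higher ones. Ces1f, Ces2a and Ces1e were higher with AA by 2.11 ± 0.14, 2.04 ± 0.06 and 1.96 ± 0.21. At day 3, 37 were higher and 21 lower, beside 18.1% and 20.3% of all genes (38.5% in either direction), and Ugt2b5, Ces2a and Gstm1 were higher with AA by 1.53 ± 0.15, 1.36 ± 0.05 and 1.15 ± 0.06. Gstk1, Cyp1a1 and Cyp1b1 were higher with PGE2, by differences (AA minus PGE2) of -1.58 ± 0.11, -1.47 ± 0.10 and -1.46 ± 0.10. The 2 treatments were given at different doses, so these values compare the groups as treated and not the compounds.

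Genes around these enzymes were described by lists, with no test of the list. Their counts stand beside 21.2% of all genes higher and 20.1% lower with AA at day 3, 27% and 28.9% with PGE2 at day 1, and 28.9% and 30.1% with PGE2 at day 3. Among 19 tested regulators of xenobiotic genes, 15 rose and 2 fell with AA at day 3, while 8 rose and 8 fell with PGE2 at day 1. Vdr, the vitamin D receptor, fell with PGE2 at day 1 by 2.29 ± 0.09 and with AA by 0.89 ± 0.08. Nfe2l2, which drives antioxidant genes, rose with AA and PGE2 at day 3 by 0.71 ± 0.04 and 0.66 ± 0.04, and Pparg by 1.06 ± 0.07 and 1.10 ± 0.07. Among 18 suppliers of cofactors and electrons, 15 rose and 2 fell with AA at day 3, and 12 rose and 3 fell with PGE2. Gclc, the rate-limiting enzyme of glutathione synthesis, rose by 0.71 ± 0.05 and 1.10 ± 0.04. Papss2, which makes the sulfate donor of the sulfotransferases, rose with AA at day 6 by 1.32 ± 0.10. Papss1, which makes the same donor, had lower means with treatment at the earlier days. They were 63 CPM in vehicle, 39.1 with AA and 34.6 with PGE2 at day 1, and 72.2, 59.7 and 52.7 at day 3. At day 6 its means were 82.2 CPM in vehicle and 88.3 with AA.

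Of 25 tested enzymes of other biotransformation families, 16 fell and 4 rose with PGE2 at day 1, and 15 rose and 8 fell at day 3. The mitochondrial aldehyde dehydrogenase Aldh1b1 fell by 3.44 ± 0.06 and the membrane glutathione transferase Mgst1 by 2.02 ± 0.07 with PGE2 at day 1. Of 15 transporters of drugs and conjugates, 13 rose and 0 fell with AA at day 3 and 12 rose and 2 fell with PGE2. Abcc3 and Abcc5, exporters of conjugates and nucleotides, rose with PGE2 at day 1 by 1.5 ± 0.05 and 1.83 ± 0.06 and with AA by 1.08 ± 0.05 and 1.36 ± 0.06.

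The members share their places in the genome: 76 of 94 lie within 1 Mb of another member of the set, in 17 groups by GENCODE release M21, and 70 of them in 14 groups of 3 or more. Neighbours of 1 subfamily (Cyp2c, Cyp3a, Gsta, Gstm, Gstp, Ugt2b, Ces1) can be close copies, whose reads the counting could split, and values of single copies are uncertain to that extent.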

How the data were processed

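The files hold RNA-seq counts per gene, whole numbers, as the authors deposited them, in 1 table for days 1 and 3 (18 libraries) and 1 for day 6 (8 libraries). The submitters' processing notes name cutadapt, STAR, DESeq2, limma 3.46 and the build GRCh38.p6, a human build, while the identifiers are of mouse genes and 98.4% carry the versions of GENCODE release M21. No source used here states the counting program or its strand setting. Symbols were found for 99.6% of identifiers.

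Genes passing edgeR's filterByExpr were scaled by TMM and tested with edgeR 4.0.16 (glmQLFit, robust, and glmQLFTest, in R 4.3.3) with 1 coefficient per group, in 1 fit per table and a joint fit for the AA response at day 6 minus day 3, and Benjamini-Hochberg adjusted over all genes of the fit at 0.05. The SE was taken from the F statistic. The fits were tested on simulated data. Members and lists were chosen with earlier results of these data known. Most members described library by library were chosen by rule. These were the members with the largest called changes per family, every treated library beyond every vehicle library and a mean of at least 5 CPM. To them came the member with the highest mean in each family, and up to 3 in each direction per comparison. Other members were named as parts of their subfamily, with their values known. Among these, Cyp2b10, Cyp2d26, Cyp2d34 and Gsto1 were also described library by library. Pathway genes were named by smallest p per list and comparison. The HNF4 genes, Ahrr and Tiparp were also followed over the other comparisons, and Papss1 was added beside Papss2, with their values known. Same-numbered replicates are not said to be paired and are not treated as such. DESeq2 1.42.0, other scalings, filters and left-out libraries were tried as alternatives. Promoters are from RefSeq on GRCm38.p6 and 82 of 94 members matched.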

Additional observations from a re-analysis of the deposited data

Results flagged for a closer look

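Among the named members, 4 of 74 sets of day 6 values held a library far from the other 3, where chance gives about 1 in 20. In vehicle library 4 of day 6, Ugt2b35 was at 96.7 CPM against 128 to 129 in the others (gap over range 0.969), Sult6b2 at 4.42 against 6.65 to 6.84 (0.921), and Sult1d1 at 31 against 47.4 to 50.7 (0.832). Ces2a was lowest in vehicle library 2 of day 6, at 776 against 836 to 848 CPM (0.833).

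The response to AA differed between days 1 and 3 in 49 members, by edgeR's test of the difference itself, beside 18% of all genes. It was higher at day 3 by 1.46 on the log2 scale for Sult6b2, 1.37 for Cyp2s1 and 1.26 for Cyp4f40, and the difference was -0.75 for Ces2f. The response to PGE2 differed in 67 members, beside 24.2% of all genes, with differences of 2.26 for Ugt2a3, 2.25 for Sult6b2 and 2.06 for Ces1e. Between days 3 and 6 the AA response differed in 38 members, beside 19.1% of all genes. It was higher at day 6 by 0.77 for Cyp2u1, 0.65 for Gstm5 and 0.64 for Gstt3. The difference was -2.38 for Cyp1a1, -1.38 for Sult2b1 and -1.27 for Cyp2c29. The day 6 libraries are a separate set, so day and set cannot be told apart in these differences.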

How the results depend on the processing

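Under DESeq2, other scalings and filters, fits of the contrast's groups alone and sums without rRNA-like and mitochondrial genes, no count of called members moved by over 1.5 times. The 611 calls of single members over all comparisons gave 4786 values in these fits and those with a replicate block. Of them 4693 kept the call, 93 lost it and 0 turned sign. Calls of genes that an alternative no longer tested are left out and not counted as lost: the stricter filter kept 562 of the 611. With 1 library left out at a time, 4532 of 4750 kept the call. Called members then numbered 46 to 49 with AA at day 1, 57 to 61 at day 3 and 34 to 42 at day 6, 57 to 65 and 71 to 76 with PGE2 at days 1 and 3, 54 to 56 and 56 to 62 for AA against PGE2, 50 to 57 for vehicle over time, and 45 to 52, 63 to 69 and 34 to 44 for the AA, PGE2 and later AA response differences. At day 6 the call of Ugt2b35 was lost without AA library 1 or 3 (edgeR adjusted p = 0.0628 and 0.073), that of Cyp2s1 without vehicle library 4 (0.0658) and that of Akr1c14 with no filter (0.0587). With PGE2 at day 3 the call of Ugt2b5 was lost without PGE2 library 1 (0.0836). On total counts in place of TMM the all-gene split of higher and lower also moved by over 10 percentage points for AA at day 3 (3143 and 2986 to 2459 and 3903), vehicle over time (2943 and 3039 to 3726 and 2042) and the AA and PGE2 response differences of days 3 and 1 (1487 and 1181 to 986 and 1410, 1876 and 1716 to 2221 and 1277). The members' splits there were 50 and 8, 25 and 29, 45 and 1, and 66 and 1. Counts without Gsto2, Sult4a1 and Cyp3a59 were added after seeing the data. Leaving out so few members could not move any total by over 1.5 times, so these counts are no check of the totals. Cyp2d10 and Cyp2d34 were kept in them. Depth limits members near 1 CPM, such as Cyp2e1.

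Same-numbered libraries were not shown to be pairs. Their deviations correlated at -0.11 to 0.269 in 45 pairs of days 1 and 3, 5 of them over 0.1. At day 6 they correlated at -0.112 to 0.215 in 4 pairs, 3 of them over 0.1. Differently numbered libraries of different groups correlated at -0.284 to 0.2 in days 1 and 3 and at -0.333 to 0.379 at day 6. With the replicate number as a block, called members numbered 49, 58 and 45 with AA at days 1, 3 and 6 and 65 and 76 with PGE2 at days 1 and 3. The block gave 56 and 58 for AA against PGE2, 56 for vehicle over time, and 51, 67 and 44 for the AA, PGE2 and later AA response differences.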
